A study of Mus musculus with 3 samples.

Results

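White adipose genes were followed in aortas labelled Plk1(+/-) and in a pool of wild-type, Plk1(+/+) aortas. The set holds 32 of the 27670 genes or transcripts named on the array, chosen by name: adipokines, adipogenic regulators, lipid droplet and lipolysis genes, fatty acid uptake genes, and enzymes of fatty acid and triglyceride synthesis. The array carried 59 probes for them among 41174 probes for all genes. Each of 3 two-colour arrays on 1 slide held RNA of 1 individual Plk1(+/-) aorta in Cy5 and RNA of the pool of 3 wild-type aortas in Cy3. Both genotypes were of strain 129/CD1 and 3 to 5 months old, and the labels do not describe the Plk1 allele. Plk1 encodes a mitotic kinase, and the comparison asks which transcripts differ between Plk1(+/-) and wild-type aortas. The dyes were never swapped, so dye and genotype cannot be told apart. The pool is 1 control sample, and its own spread was not measured.

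Fat surrounds the mouse aorta as perivascular adipose tissue, which in the thorax resembles brown fat and elsewhere resembles white fat. To build triglycerides, adipocytes either take up fatty acids released by lipoprotein lipase or make them from citrate through ATP-citrate lyase, acetyl-CoA carboxylase and fatty acid synthase. PPAR gamma and C/EBP alpha maintain the adipocyte programme, SREBP-1 drives the synthetic enzymes, and a chain of lipases empties the lipid droplet again. In whole-tissue RNA, fewer adipocytes and less RNA per adipocyte cannot be told apart.

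The log2 ratio of each probe is the Plk1(+/-) sample over the pool, after normalization within the array, so values below 0 mean less signal from the Plk1(+/-) aorta. Raw signals are given in scanner units and are not yet dye-normalized. Median raw signals over all probe spots were 335 to 357 in Cy5, against 155 to 165 in Cy3, so a raw Cy5 signal above Cy3 is not by itself a higher level. Plk1 itself had log2 ratios of -0.06, -0.08 and 0.42 in samples 1, 2 and 3. The smooth muscle markers that define an aorta were present, and 9 of 10 were measured without saturation.

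Fat genes were among the brightest on the array, and many reached the scanner's ceiling. Of the 59 probes, 23 were saturated in at least 1 dye on at least 1 array, against 1.45% of all probes. Cy5 was saturated on all 3 arrays for 18 of them. Fasn, Cidec and Dgat2 each had a probe saturated in both dyes on all 3 arrays, against 0.102% of all probes. That left 36 probes of 20 genes with a measured ratio. The other 12 genes had saturated probes only: Adipoq, Cfd, Srebf1, Thrsp, Plin1, Cidec, Cd36, Fabp4, Fasn, Scd1, Elovl6 and Pck1.

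**Figure D1:**
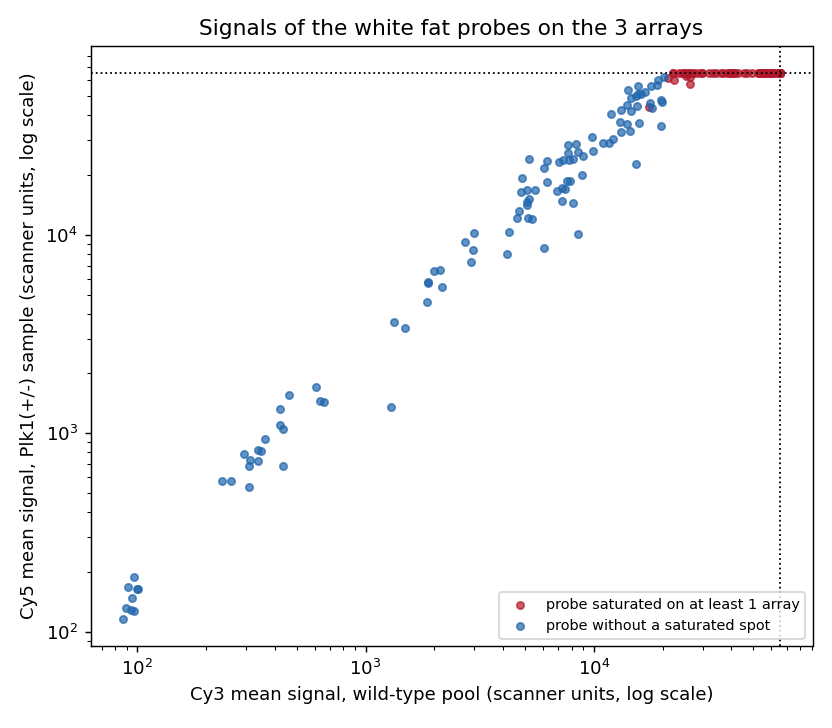
Raw mean signal of each of the 59 probes on each array, with Cy5 (Plk1(+/-) sample) on the vertical and Cy3 (wild-type pool) on the horizontal axis, both logarithmic and in scanner units. Dotted lines mark the highest signal read in each dye. The 23 probes with a saturated spot crowd under the Cy5 ceiling, while the other 36 fall below it.

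No white fat gene passed the test for a difference between Plk1(+/-) aortas and the pool. Of the 36 measured probes, 0 passed in limma (adjusted p under 0.05), and the background over all 31890 probes tested was 0%. At an unadjusted limma p under 0.05 there was 1 of 36, against 17.9% of all probes. Above 0 on all 3 arrays were 4 of 36, against 25.6% of all probes, and below 0 on all 3 were 0 of 36, against 18.7%. The adjusted p-values of the 36 in limma ran from 0.223 to 0.999, and the lowest over all probes tested was 0.178. With 3 arrays, 0 calls do not show equal levels. With 1 probe per gene, the median log2 ratio of the 20 genes was 0.04, against 0.03 over all probes tested. Means above 0 were read for 11 genes and means below 0 for 9, and the means ran from -0.48 to 0.26.

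This result holds for ratios normalized along signal intensity, and another scaling ended it. With each array centred on its median instead, 25 of the 36 probes passed in limma. Of these, 23 were higher and 2, the dim probes of Lipe and Acly, were lower. Of all 31890 probes tested, 13117 passed too, and 9058 of those were higher. The median of the 20 genes was then 0.45, against 0.18 over all probes and 0.51 over the 1792 probes in the middle range of the set's intensities. The fat genes were thus shifted together with other bright probes, and their signs below are those of the intensity-dependent normalization.

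Some fat genes differed widely between the 3 animals. In samples 1, 2 and 3 the median over the 20 genes was -0.05, 0.23 and 0.07, against 0.03, 0.01 and 0.03 over all probes tested. Sample 1 was the lowest of the 3 for 12 genes, sample 3 for 7 and sample 2 for 1. The SD over the 3 arrays had a median of 0.23 for the 20 genes and 0.14 for all probes. It was above 0.5 for 7 of the 36 probes, against 6.68% of all probes, a threshold chosen after seeing the data. Those 7 probes belong to Lep, Retn, Acly, Scd2, Gpam and Lpin1. Retn is counted by both of its probes, which overlap. Lpin1 is there by A_52_P483101 alone (SD 0.52), while its brightest probe had an SD of 0.39. With 1 probe per gene, 5 of the 20 genes were above 0.5. Comparisons of SD with all probes, here and below, include dim probes and were not matched for signal intensity. The spread was not tested, since each array holds a different animal.

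**Figure D2:**
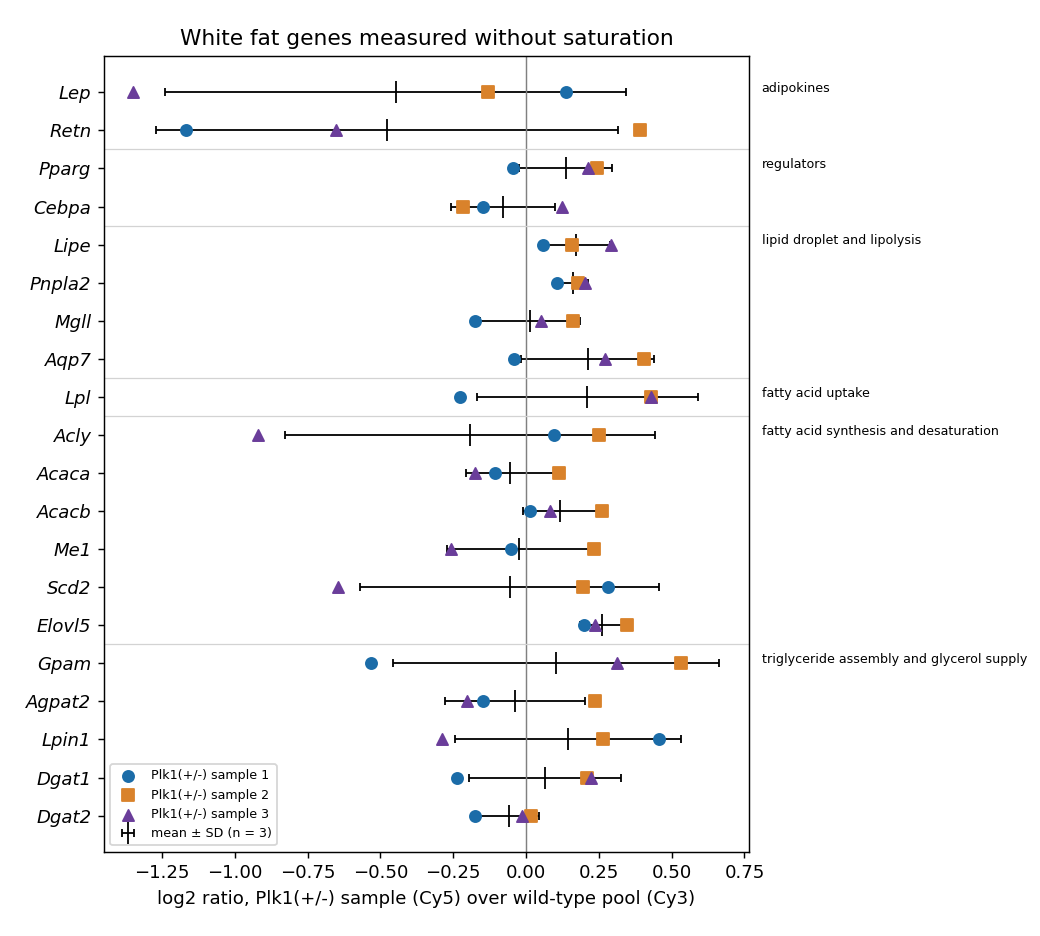
Log2 ratio over the wild-type pool of the 20 white fat genes with a measured probe, in Plk1(+/-) samples 1, 2 and 3, with the mean and SD (n = 3) in black and the genes grouped by role. Lep, Acly and Scd2 are lowest in sample 3, Retn is below 0 in samples 1 and 3, and Pparg, Lipe and Pnpla2 lie between -0.05 and 0.29.

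Among the adipokines, leptin was low in 1 animal. Lep, the fat-derived hormone that reports energy stores to the brain, had raw Cy5 signals of 3654.6, 3380.0 and 1356.4 in Plk1(+/-) samples 1, 2 and 3, against Cy3 signals of 1326.9, 1490.2 and 1298.8 in the pool. Its log2 ratios were 0.14, -0.13 and -1.35. Samples 1 and 2 thus lay near the pool, and sample 3 read 2.55-fold lower. The mean was -0.45 ± 0.79 (SD, n = 3; limma adjusted p = 0.481), and without sample 3 it turned to 0.0031. Of all probes tested, 2.64% had an SD at least as large.

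The Lep probe was printed on 10 spots of each array, which shows how well 1 array repeats itself. In sample 3 the 10 spots read between -1.40 and -1.28, in sample 1 between 0.08 and 0.22, and in sample 2 between -0.17 and -0.08. Spot SDs were 0.03 to 0.06, so the gap of sample 3 far exceeded the spread between spots. The Pparg probe, also on 10 spots, read -0.16 to 0.04 in sample 1, 0.16 to 0.38 in sample 2 and 0.14 to 0.31 in sample 3. Spots of 1 array share 1 labelled RNA and are not replicate animals.

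**Figure D3:**
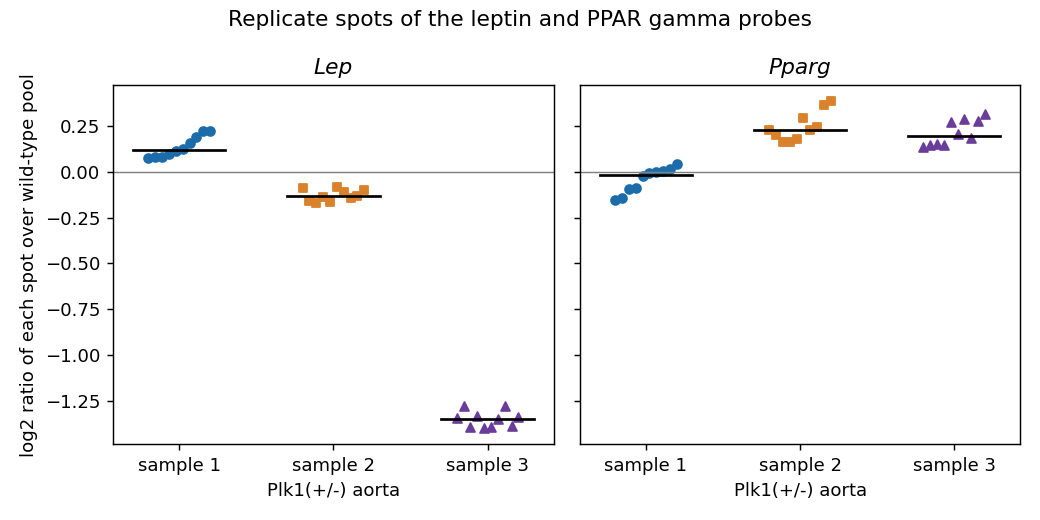
Log2 ratio over the wild-type pool of each of the 10 spots of the Lep probe (left) and the Pparg probe (right) in Plk1(+/-) samples 1, 2 and 3, with the median as a black line. All 10 Lep spots of sample 3 lie between -1.40 and -1.28, apart from those of samples 1 and 2, while the Pparg spots stay between -0.16 and 0.38 in the 3 samples.

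Resistin had an SD as large as that of leptin, with another order of animals. Retn, an adipocyte-secreted peptide that in mice impairs insulin action, was read by a pair of probes, shown here because they overlap and so test the same stretch of the transcript. They lie at chr8:3618519-3619340 and chr8:3618557-3619378 on the plus strand of mm7, spans of 822 bases for 60 bases of probe, so each crosses an intron. Capitals mark the 22 bases that both hold.
Retn probe A_52_P55972: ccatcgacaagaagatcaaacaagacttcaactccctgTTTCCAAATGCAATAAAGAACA
Retn probe A_51_P233597: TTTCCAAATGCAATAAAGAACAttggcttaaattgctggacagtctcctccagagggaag

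The brighter of both, A_51_P233597, had raw Cy5 signals of 10064.5, 28664.9 and 14445.4 in Plk1(+/-) samples 1, 2 and 3, against Cy3 signals of 8496.4, 8319.5 and 8070.1 in the pool. Its log2 ratios were -1.17, 0.39 and -0.65. The other probe read -0.90, 0.53 and -0.47. Both probes placed sample 1 lowest and sample 2 above the pool, while the pool's own Cy3 signals stayed close to each other. The means were -0.48 ± 0.79 and -0.28 ± 0.73 (SD, n = 3 each; limma adjusted p = 0.458 and 0.631), and with median centring the first became 0.0065 (-0.68, 0.85 and -0.14). Sample 3 was thus below the pool for both Retn and Lep, whereas sample 1 had the lowest Retn and a Lep ratio above 0.

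The other adipokines could not be measured as ratios. Adipoq, which encodes the insulin-sensitizing hormone adiponectin, was saturated in Cy5 on all 3 arrays. Its pool signals in Cy3, which were not saturated, were 38169.9, 53084.9 and 46895.8. Since the same pool was on every array, these values also show how far a bright Cy3 signal moved between arrays. Cfd, the serine protease adipsin of the alternative complement pathway, was saturated in Cy5 on all 3 arrays and in Cy3 on 2.

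Of the 4 regulators of the adipocyte programme, Pparg and Cebpa had a measured ratio, and neither passed the test. In samples 2 and 3, 11.0% and 3.57% of the Cy5 pixels of Pparg were saturated. Pparg, the nuclear receptor that commits cells to the fat lineage, read -0.05, 0.24 and 0.21, averaging 0.14 ± 0.16 (SD, n = 3; limma adjusted p = 0.456). Cebpa, its partner in terminal differentiation, read -0.15, -0.22 and 0.12 on its brighter probe and -0.04, -0.12 and 0.12 on the other. Both genes lay between -0.22 and 0.24 in each sample, including sample 3 with its low Lep. With median centring both passed in limma, Pparg at 0.63 (adjusted p = 0.0231) and Cebpa at 0.40 (adjusted p = 0.0426). Srebf1, which encodes the sterol regulatory element binding protein that activates lipogenic enzymes, had a ratio in sample 1 alone, at -0.12 with 16.1% of its Cy5 pixels saturated. Thrsp, a lipogenic nuclear protein responsive to thyroid hormone, was saturated in Cy5 on all arrays.

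The start region of Lep carries letters matching the C/EBP consensus. The 250 bases before the Lep start (chr6:29059971-29060220, plus strand, GRCm38.p6) and before the Acly start (chr11:100528001-100528250, minus strand) are printed from RefSeq because both genes were low in sample 3. Capitals mark TTGCNNAA, a C/EBP-like motif, and GGGCGG, a GC box, on either strand.
Lep promoter: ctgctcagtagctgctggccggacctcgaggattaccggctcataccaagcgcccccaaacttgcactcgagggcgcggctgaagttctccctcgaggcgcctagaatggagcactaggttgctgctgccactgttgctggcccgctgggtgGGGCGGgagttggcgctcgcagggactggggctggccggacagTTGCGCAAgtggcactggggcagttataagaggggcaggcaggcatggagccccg
Acly promoter: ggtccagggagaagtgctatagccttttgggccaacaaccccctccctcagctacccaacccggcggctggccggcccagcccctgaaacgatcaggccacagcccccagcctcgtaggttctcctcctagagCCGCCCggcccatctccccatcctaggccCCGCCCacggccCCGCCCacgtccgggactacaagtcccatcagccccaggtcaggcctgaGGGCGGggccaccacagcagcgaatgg

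In Lep the C/EBP-like motif begins at -55 and the GC box at -98 relative to the start, and they do not overlap. Acly holds GC boxes that begin at -117, -88, -76 and -27. Of 32851 RefSeq promoter windows of the same length, 9.56% hold TTGCNNAA and 32.7% hold GGGCGG. Promoter windows were matched for 26 of the 32 genes, and 4 of these (Cidec, Lep, Plin1 and Pparg) hold the C/EBP-like motif while 12 hold a GC box. Of the other motifs searched on both strands, CCAAT stood in 10 of the 26 genes (33.8% of all windows), the E-box CACGTG in 3 (6.02%) and the sterol element-like TCACNCCA in 1 (3.67%). The PPAR-type DR1 repeat, AGGTCA and AGGTCA with 1 base between, stood in 0 (0.0335%). A match is a description of letters, and no binding was measured here.

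Of the 6 measured genes of fatty acid synthesis and desaturation, Acly and Scd2 stood clearly lower in sample 3, Me1 and Acaca were lowest there by less, and Acacb and Elovl5 were lowest in sample 1. Acly, which splits citrate to give cytosolic acetyl-CoA, had raw Cy5 signals of 44728.5, 51028.3 and 22700.7 in Plk1(+/-) samples 1, 2 and 3, against Cy3 signals of 15479.5, 16120.8 and 15272.5 in the pool. Its log2 ratios were 0.10, 0.25 and -0.92. Sample 3 read 1.89-fold lower than the pool, whereas samples 1 and 2 lay above it. The mean was -0.19 ± 0.64 (SD, n = 3; limma adjusted p = 0.71), and it turned to 0.17 without sample 3. A second Acly probe was dim, with Cy5 signals of 128.1 to 163.3, and read 0.09, -0.15 and -0.24.

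Scd2, a stearoyl-CoA desaturase that makes monounsaturated fatty acids, was lowest in sample 3 as well. Samples 1, 2 and 3 read 0.28, 0.20 and -0.65, averaging -0.06 ± 0.51 (SD, n = 3; limma adjusted p = 0.901), or 0.24 without sample 3. With median centring it read 0.79, 0.68 and -0.14, so sample 3 then lay near the pool and still below the other animals. In sample 2, 39.3% of the Cy5 pixels of its spot were saturated, so that value may be too low. Me1, the cytosolic malic enzyme that supplies NADPH, read -0.05, 0.23 and -0.26 on its brighter probe and 0.32, 0.30 and -0.27 on the other. Sample 3 was lowest on both. On the brighter probe, 14.3% of the Cy5 pixels were saturated in sample 2.

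The carboxylase step moved less. Acaca, acetyl-CoA carboxylase of the cytosol, was read by 4 probes. Sample 3 was lowest on each, at -0.17 on the brightest probe, -0.07 and -0.12 on 2 others, and -0.48 on A_52_P595124, the 1 probe that set sample 3 clearly apart. Acacb, the carboxylase at the mitochondrial surface, read 0.01, 0.26 and 0.08 on a weak probe. Elovl5, an elongase of polyunsaturated fatty acids, had the smallest p of the set: 0.20, 0.35 and 0.24 on the brighter probe, with a mean of 0.26 ± 0.08 (SD, n = 3; limma adjusted p = 0.223). Its other probe read -0.04, 0.30 and 0.14, so the sign in sample 1 differed between probes.

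Fasn, Scd1 and Elovl6 were measured in few spots or none. Fasn, which assembles palmitate, was saturated on a probe in both dyes throughout. Its other probe was clear of saturation in sample 3 alone, where it read -0.15 with raw signals of 44304.0 in Cy5 and 17482.8 in Cy3. On that probe Cy5 was at the ceiling in samples 1 and 2, so the Cy5 signal of sample 3 was the lowest of the 3, while the pool signal was lowest there too. Elovl6, which elongates palmitate to stearate, was unsaturated in sample 3 alone and read -0.38 with 11.8% of its Cy5 pixels saturated. Scd1, the desaturase closest to Scd2, was saturated in Cy5 on all 3 arrays.

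Triglyceride assembly showed no common direction. Lpin1, the phosphatidate phosphatase lipin 1, was read by 4 probes. They ran from 0.43 to 0.80 in sample 1, from 0.18 to 0.30 in sample 2 and from -0.29 to -0.09 in sample 3. The 4 probes kept the same order of samples, with sample 1 highest, and limma adjusted p-values were 0.446 to 0.657. Of these probes, A_52_P483104 and A_52_P483105 overlap in mm7 and A_52_P483101 lies directly beside them, so they read nearly the same stretch. Gpam, the acyltransferase that starts glycerolipid synthesis, went the other way, with -0.53, 0.53 and 0.31 and sample 1 lowest (adjusted p = 0.825 in limma). It rests on a probe with raw Cy5 signals of 686.2, 1566.7 and 1321.4 in samples 1, 2 and 3. The pool's Cy3 signals there were 434.3, 463.1 and 422.6.

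Agpat2, which adds the next acyl chain, read -0.15, 0.24 and -0.20 on its brighter probe, with 36.1% of the Cy5 pixels saturated in sample 2. Dgat1 and Dgat2 catalyse the last step of triglyceride synthesis. Dgat1 read -0.24, 0.21 and 0.22 on the brighter probe and -0.45, -0.09 and 0.03 on the other. Dgat2 read -0.18, 0.02 and -0.02 on its unsaturated probe. Pck1, the PEPCK that feeds glycerol synthesis in fat, was saturated in Cy5 on all arrays.

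Of the 6 lipid droplet and lipolysis genes, 4 had a measured ratio. Their SDs ran from 0.05 to 0.23, against a median of 0.14 over all probes. Pnpla2, adipose triglyceride lipase, read 0.11, 0.18 and 0.20, a mean of 0.16 ± 0.05 (SD, n = 3; limma adjusted p = 0.305). Of all probes, 90.3% had an SD at least as large. In sample 2, 12.3% of the Cy5 pixels of Pnpla2 were saturated, and in the deposited log ratio its mean was 0.014. Lipe, hormone-sensitive lipase, read 0.06, 0.16 and 0.29 on its brightest probe and -0.16, 0.13 and 0.0017 on the next. Its remaining probe matched Lipe through an older name, was dim and read -0.11, -0.03 and 0.14. Mgll, the monoglyceride lipase, had 1 unsaturated probe that was barely above background, at -0.17, 0.16 and 0.05. Aqp7, the glycerol channel of adipocytes, read -0.04, 0.41 and 0.27 on one probe and -0.03, 0.38 and 0.17 on the other, and these probes overlap. Plin1 and Cidec, coats of the lipid droplet, were saturated in Cy5 on all arrays.

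Of the uptake genes, Lpl alone had a measured ratio. Lpl, lipoprotein lipase, read -0.23, 0.43 and 0.43, a mean of 0.21 ± 0.38 (SD, n = 3; limma adjusted p = 0.514). Sample 1 lay below the pool and the other samples above it. In samples 2 and 3, 6.25% and 4.92% of the Cy5 pixels of this probe were saturated. Cd36, a fatty acid translocase, was clear of the saturation mark in samples 1 and 3 on 1 probe. It read -0.20 and -0.07 there, with 41.9% and 26.2% of the Cy5 pixels saturated. Fabp4, the fatty acid carrier protein of adipocytes, had 3 probes, and Cy5 was saturated on all of them. Lpl, Cd36 and Fabp4 are also made outside fat, in muscle, macrophages or endothelium.

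Saturated probes gave calls of lower signal in Plk1(+/-) aortas that unsaturated probes did not give under the same normalization. With saturated probes kept in the fit, limma called 11 of 59 probes of 10 genes at an adjusted p under 0.05, all 11 lower and all 11 saturated. They belong to Cfd, Cidec, Dgat2, Fabp4, Fasn, Lpl, Mgll, Pnpla2, Scd1 and Thrsp. In the same fit 0.631% of all probes were called lower and 0.0308% higher, and 184 of the 215 calls were on saturated probes. Probes with both dyes at the ceiling read -1.45 in sample 1, -1.43 in sample 2 and -1.49 to -1.47 in sample 3, whichever gene they stood for. These are readings of the ceiling, and no fold follows from them.

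Lpl, Pnpla2, Dgat2, Acacb and Mgll had both kinds of probe, so the readings could be set side by side within a gene. The saturated Lpl probe read -1.42, -1.34 and -1.25, while the unsaturated one read -0.23, 0.43 and 0.43. The saturated Pnpla2 probe read -1.31, -1.20 and -1.21, while the unsaturated one read 0.11, 0.18 and 0.20. For Dgat2 the probe with both dyes saturated read -1.45, -1.43 and -1.47, against -0.18, 0.02 and -0.02 without saturation. A further Dgat2 probe, saturated in Cy5 on 2 arrays, read 0.09, 0.14 and -0.17, so not every saturated probe read low. The saturated Acacb probe read -0.73, -1.22 and -0.89, and those of Mgll lay between -0.82 and -0.52. In each of the 5 genes the saturated probe lay downstream of the unsaturated one in mm7, by 81 bases at the least.

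The unsaturated probes of 4 of the lipid enzymes are shown because the measured ratios of these genes rest on them. The Lpl probe lies at chr8:67355909-67355968 and the Pnpla2 probe at chr7:137876465-137876524, both on the plus strand of mm7. The Acacb probe spans chr5:113406086-113410171 on the plus strand and the Lipe probe chr7:22170761-22173014 on the minus strand, and both cross an intron.
Lpl probe: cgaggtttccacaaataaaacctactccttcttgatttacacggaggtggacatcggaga
Pnpla2 probe: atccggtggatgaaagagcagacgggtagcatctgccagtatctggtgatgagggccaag
Acacb probe: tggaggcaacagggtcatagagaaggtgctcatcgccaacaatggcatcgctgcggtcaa
Lipe probe: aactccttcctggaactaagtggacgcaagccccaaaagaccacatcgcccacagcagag

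**Figure D4:**
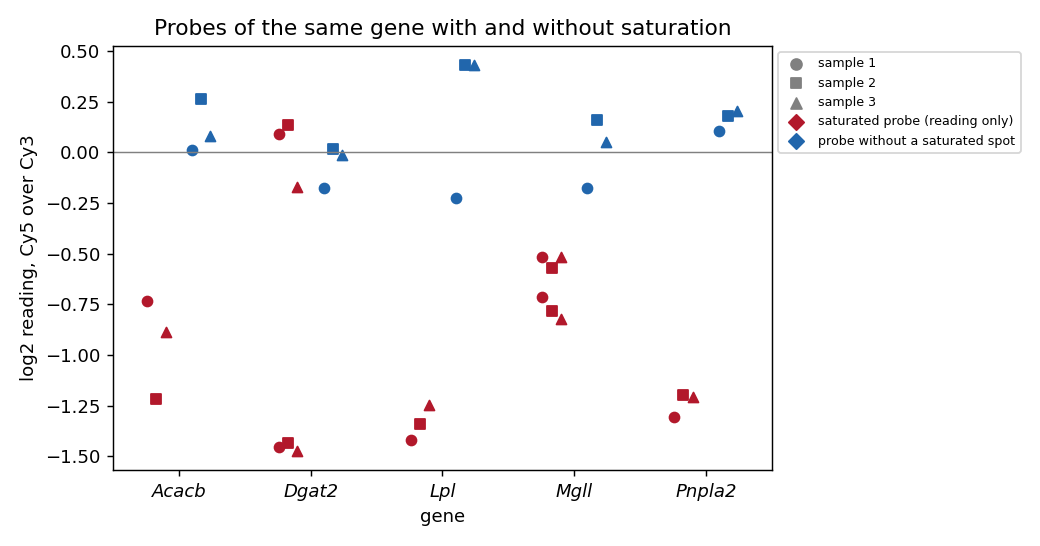
Log2 reading of Cy5 (Plk1(+/-) sample) over Cy3 (wild-type pool) for the 5 genes that have both kinds of probe, saturated in red and without a saturated spot in blue, with samples 1, 2 and 3 by marker shape. Unsaturated probes lie between -0.23 and 0.43, while the saturated Lpl and Pnpla2 probes read -1.20 or lower.

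Further genes of lipid storage and the sterol response did not pass either. Of 55 such genes, 48 had a measured probe and 0 passed in limma over all probes, with 2 higher and 3 lower at an unadjusted p under 0.05, against 8.95% and 8.91% of all probes. Their medians were -0.11, 0.09 and -0.07 in samples 1, 2 and 3. The 6 with the smallest p were Fitm1 (-1.27 ± 0.64), Lpin2 (0.42 ± 0.19), Elovl1 (-0.21 ± 0.07), Insig2 (0.24 ± 0.12), Acsl3 (-0.20 ± 0.08) and Acsl4 (0.20 ± 0.11; SD, n = 3 each), with limma adjusted p-values of 0.212 to 0.288.

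Fitm1, a protein of lipid storage found mainly in striated muscle, read -0.86, -0.94 and -2.0. Skeletal muscle markers read lowest in the same sample, with medians of -0.69, -0.95 and -2.97. Lpin2, a relative of lipin 1, read 0.31, 0.64 and 0.30, above the pool in each sample. Insig2, which holds SREBP in the endoplasmic reticulum, read 0.30, 0.32 and 0.10. Angptl4, Plin2, Plin4, Plin5, Cidea, Slc2a4 and Rbp4 had saturated probes only.

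Other tissues in the samples also varied between animals, and the markers of some lay to 1 side of the pool. Brown fat markers had medians of -0.25, 0.25 and 0.15 in samples 1, 2 and 3 over the 7 of 12 that were measured. These medians had the same order of samples as the white fat median, and so did Cpt1b, but the single markers did not share 1 order. Dio2 was highest in sample 3 (0.64), Elovl3 was lowest there (-0.47), and Prdm16 was lowest in sample 2 (-2.95). Ucp1, the uncoupling protein that defines brown fat, was saturated, as were Cidea, Cox8b, Cox7a1 and Fabp3. Skeletal muscle markers had means below the pool for 11 of 11 measured genes, and their median was lowest in sample 3, at -2.97. Of the 20 fat genes, 7 were lowest in sample 3, Lep, Acly and Scd2 among them. Sample 1 was lowest for 12 of the 20, and 5 were highest in sample 3. Lymphocyte markers had medians of 0.14, 1.5 and 1.83, with means above the pool for 10 of 10 measured genes. Smooth muscle markers had medians of -0.42, -1.40 and -1.05, with means below the pool for 9 of 9. Over all 31890 probes tested, 18490 means were above 0 and 13400 below. Macrophage and endothelial markers had medians of 0.02, -0.02 and 0.20 and of 0.05, -0.07 and -0.22. Adventitial fibroblast markers had medians of -0.31, -0.42 and -0.33 and red cell markers -0.50, -1.19 and -0.91. Means were below the pool for 7 of 9 and 4 of 4 of these. The part of any of these tissues in the values of the fat genes was not tested.

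**Figure D5:**
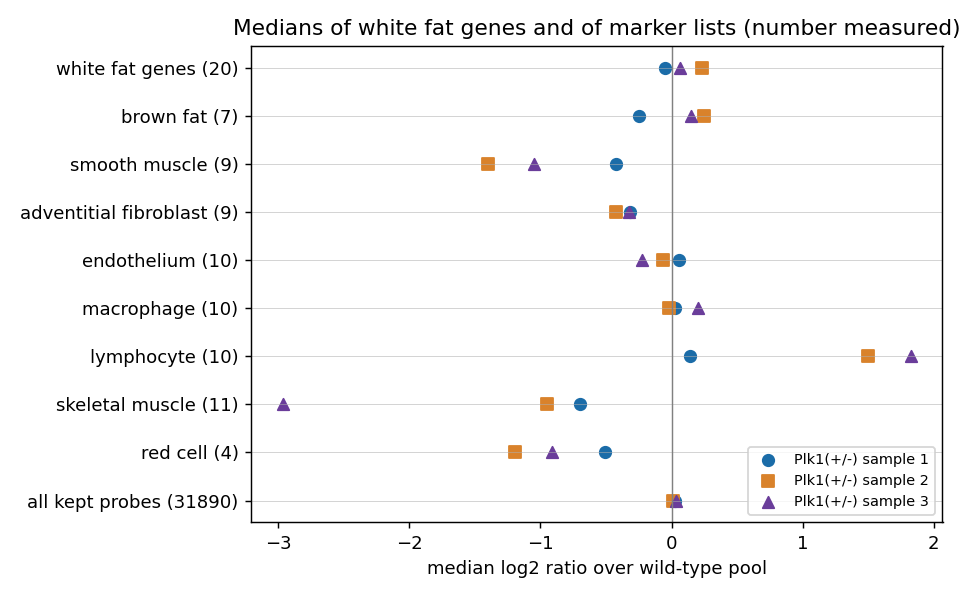
Median log2 ratio over the wild-type pool of the white fat genes, of 8 marker lists and of all kept probes, in Plk1(+/-) samples 1, 2 and 3, with the number of genes or probes measured in brackets. White fat medians lie between -0.05 and 0.23, while skeletal muscle reaches -2.97 and lymphocyte markers reach 1.83 in sample 3.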

How the data were processed

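Total RNA was amplified, labelled with Cy3 or Cy5 and hybridised to Agilent arrays, per the labels' protocols, whose growth text describes embryonic stem cells; the tissue label, aorta, was followed. The deposited spot intensity values were written by the scanner software (Feature Extraction, version 9.5.3.1, per the file headers). They are neither background-subtracted nor normalized. The deposited log10 ratio is processed Cy5 over processed Cy3, per the file headers. The authors' deposited series values are log2 ratios, and their centring is not stated. Flags and pixel numbers are those of the deposited files.

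Mean signals were corrected with normexp (offset 50) and normalized by loess in limma 3.58.1 under R 4.3.3, with control spots at weight 0. Outlier spots (100 to 136 per array) were left out and spots of a probe averaged. A probe was tested if never saturated and if, on 2 or more of the 3 arrays, at least 0.5 of its spots were well above background in Cy5 or Cy3. Ratios were tested against 0, two-sided, with Benjamini-Hochberg adjustment over 31890 probes. The test was also run on simulated data, and the outcome is not given here. All members are named, the brightest kept probe standing for a gene, with up to 6 further lipid genes by smallest p. Names came from accessions (22951 probes), current symbols (6659) or synonyms (3109) of GRCm38.p6, and 8455 kept the file's name. Members and lists were chosen with earlier results of these data known. The labels call the samples biological replicates, and precision is limited by having 3 arrays. Array pairs correlated at 0.36, 0.21 and 0.54 over probes, sharing 1 pool.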

Additional observations from a re-analysis of the deposited data

How the results depend on the processing

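No paired analysis was possible because each array already pairs 1 sample with the same pool. Over 14 alternatives, 0 probes of the set passed except under 2. Keeping saturated probes gave 11 calls among 59 set probes and 215 among all 32486 probes then tested. Median centring gave 25 among 36 set probes, of which 23 were higher, and 13117 among all 31890 probes, of which 9058 were higher. It moved the median of all probes to 0.18 and that of the set to 0.45, against 0.51 over probes in the middle range of the set's intensities, so the set lay close to probes as bright as itself. Leaving out 1 array gave set medians of -0.04 to 0.10 and 0 calls.

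With median centring the signs turned for Retn (0.0065), Cebpa (0.40), Mgll (-0.31), Acly (0.31), Acaca (0.44), Me1 (0.47), Scd2 (0.44), Agpat2 (0.46) and Dgat2 (0.43). Relative order of samples stayed for Lep (0.54, 0.24 and -0.93), Acly (0.60, 0.72 and -0.41) and Scd2 (0.79, 0.68 and -0.14). With array weights, Acly (0.0022), Acaca (0.022), Me1 (0.091), Scd2 (0.052) and Agpat2 (0.086) turned. Mgll turned to -0.39 in the deposited log ratio and in the authors' values, and to -0.047 without background correction, and Me1 to 0.0075 with offset 16. Leaving out 1 array in turn gave ranges that crossed 0. Without sample 3 at one end they were -0.74 to 0.0031 for Lep, -0.41 to 0.17 for Acly, -0.14 to 0.0043 for Acaca, -0.15 to 0.091 for Me1, -0.23 to 0.24 for Scd2 and -0.18 to 0.044 for Agpat2, whose sign also turned without sample 1 (0.02). Leaving out sample 3 also set an end for Lpin1 (-0.012 to 0.36) and Dgat1 (-0.014 to 0.22), though the sign of Lpin1 turned without sample 1. The others were -0.062 to 0.11 for Mgll, -0.11 to 0.42 for Gpam and -0.096 to 0.00021 for Dgat2. Outside median centring, the lowest adjusted p of an unsaturated probe standing for a set gene was 0.0926 in limma. The calls on saturated probes lay below that. The other causes were not tested. Saturation limits what 12 of the 32 genes can show.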
